A study of Mus musculus with 4 samples.

Results

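Transcripts of 7 genes that store, carry and oxidise vitamin A were examined in mouse liver. The genes were chosen by symbol from 24138 rows of a gene expression table, and all 7 were found there. They are Lrat, Rbp4, Rdh10, Rdh11, Adh1, Aldh1a1 and Aldh1a2. The livers came from 4 male C57BL/6J mice aged 18 weeks, and every one of them had received the FAT-MASH diet, which models metabolic dysfunction-associated steatohepatitis, and treatment with resolvin D1 (RvD1), a lipid mediator of the resolution of inflammation. The labels give no dose, route or duration for RvD1. All 4 samples belong to this single group, so the values describe treated mice and their differences, and no effect of the diet or of RvD1 can be read from them.

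Vitamin A reaches the liver as retinyl esters carried by chylomicron remnants. Hepatocytes hydrolyse these and either secrete retinol bound to retinol binding protein, in a complex with transthyretin, or pass it to hepatic stellate cells, where LRAT esterifies it for storage in lipid droplets. Retinol is oxidised reversibly to retinaldehyde by alcohol and retinol dehydrogenases, and retinaldehyde is oxidised irreversibly to retinoic acid by ALDH1A enzymes. Retinoic acid binds RAR receptors, which act as dimers with RXR, and is degraded by CYP26 enzymes. Stellate cells lose their retinyl esters when they turn into matrix-producing myofibroblasts, which is why these genes are followed in fibrotic liver disease.

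Start-site sequences are given for the members whose values are described most closely. A pair of retinoic acid-responsive genes of the same pathway is set beside them, so that the promoters can be compared. RefSeq start sites in GRCm38.p6 were matched for 6 of the 7 genes, all but Rdh10. Each line shows the 100 bases before a start site, 5′ to 3′ on the strand of the gene. Capitals mark hexamers that RAR and RXR recognise (AGGTCA or its variants AGTTCA along with GGGTCA as well as GGTTCA), the direct repeat of such hexamers spaced by 5 bases (DR5), TATAAA and CCAAT, each searched on both strands. A DR5 match contains 2 hexamer matches, so these overlap.
Rbp4, upstream start, chr19:38125322-38125421, minus strand: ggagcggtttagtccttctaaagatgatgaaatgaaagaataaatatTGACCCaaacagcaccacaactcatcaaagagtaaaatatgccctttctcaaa
Rbp4, downstream start, chr19:38124812-38124911, minus strand: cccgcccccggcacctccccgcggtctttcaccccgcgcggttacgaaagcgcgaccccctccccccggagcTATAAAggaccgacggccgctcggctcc
Aldh1a1, chr19:20601868-20601967, plus strand: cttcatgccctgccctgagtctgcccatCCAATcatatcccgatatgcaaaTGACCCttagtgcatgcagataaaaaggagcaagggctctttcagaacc
Adh1, chr3:138277485-138277584, plus strand: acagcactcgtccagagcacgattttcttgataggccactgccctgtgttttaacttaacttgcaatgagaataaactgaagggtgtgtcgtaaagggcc
Lrat, chr3:82903975-82904074, minus strand: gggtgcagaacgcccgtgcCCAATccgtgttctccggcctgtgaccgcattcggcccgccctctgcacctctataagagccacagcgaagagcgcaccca
Aldh1a2, chr9:71215689-71215788, plus strand: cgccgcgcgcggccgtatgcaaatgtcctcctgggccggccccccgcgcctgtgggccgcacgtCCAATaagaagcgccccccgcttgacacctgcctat
Cyp26a1, chr19:37697708-37697807, plus strand: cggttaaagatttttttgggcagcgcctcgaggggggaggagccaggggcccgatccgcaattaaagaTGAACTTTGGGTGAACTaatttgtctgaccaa
Rarb, chr14:16575477-16575576, minus strand: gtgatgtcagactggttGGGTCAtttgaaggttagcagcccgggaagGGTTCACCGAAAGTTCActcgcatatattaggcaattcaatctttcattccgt

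A DR5 match was found before the start of Cyp26a1, from -32 to -16, and of Rarb, from -53 to -37. Within 250 bases before the start, 2 of 40 other retinoid genes with a start site had such a repeat, and they are the genes just named. The repeat was found in 0 of 9 windows of the 6 members and in 0.0883% of all 32851 windows. Repeats spaced by 1 or by 2 bases were also searched within 250 bases, and each was found in 0 of 9 member windows. Among the other retinoid genes, only Bco1 had the repeat spaced by 1 base and none had that spaced by 2. Over all windows the shares were 0.164% and 0.174%. Single hexamers were present before Rbp4, Aldh1a1 and Rdh11 within 250 bases, in 4 of 9 member windows against 38.6% of all windows. TATAAA stood 28 bases before the downstream start of Rbp4, in 1 of 9 member windows against 12.4% of all windows of 250 bases. CCAAT was found in 5 of 9 member windows, those of Aldh1a1, Aldh1a2, Lrat, Rbp4 and Rdh11, against 33.8% of all windows. The 250 bases before Aldh1a2 had 77.6% G and C, against 46.4% before Aldh1a1 and a median of 52.4% over all windows. A match describes the letters and is not evidence of a bound site.

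Levels are given as FPKM, fragments scaled by transcript length and library size, which allows genes of different length to be compared. About 18.8 to 20.1 M fragments were estimated per library, so that 1 fragment on a 1 kb transcript is worth about 0.0498 to 0.0531 FPKM. A gene was called expressed where its 4 livers averaged 1 FPKM or more, which held for 10541. The spread between livers is the SD of log2(FPKM + 1), on which differences of low genes appear smaller than they are. Hepatocyte markers were present, with Fabp1 between 8982 and 12264 FPKM, although Alb, a leading liver transcript, was listed at 0 in all 4 livers. An exact 0 in this table is therefore no evidence that a gene was silent, here or for the genes listed at 0 below. Liver 2 stood apart in acute phase genes: Saa1 was 139, 2135, 45.6 and 131 FPKM in livers 1 to 4. Of 10 pericentral hepatocyte markers 8 were lowest in liver 2, as were Rbp4 and Adh1, and of 9 periportal markers 4 were, against 29.9% of all expressed genes. Summed FPKM was highest in liver 4, at 570681 against 516816 to 524394 in the others. Whether the authors scaled the values between libraries is not given in the sources used here, so a scaling difference and a difference between livers cannot be told apart in counts of genes highest in liver 4.

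The 7 genes ran from Rbp4, among the most abundant transcripts, to Aldh1a2, which averaged 0.672 FPKM. Their order by mean was Rbp4, Adh1, Aldh1a1, Rdh11, Rdh10, Lrat and Aldh1a2. Of the 6 pairs of neighbours in this order, 5 had ranges over the livers that did not overlap. Rdh11 and Rdh10 overlapped: their ratio was 1.52, 1.02, 1.14 and 0.720 in livers 1 to 4. An exact two-sided sign-flip permutation test over the 4 livers gave p = 0.125 for each of the other 5 pairs. This is the smallest p that 4 livers allow (exact permutation test, adjusted p = 0.15 over 6 pairs). In the same exact permutation test, Rdh11 against Rdh10 gave p = 0.625 (adjusted p = 0.625), with Rdh11 higher in 3 of 4 livers. The order was taken from the means of the same 4 livers. Pairs whose ranges do not overlap must then reach the smallest p. For these 5 pairs the test therefore adds nothing to the ranges.

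**Figure D1:**
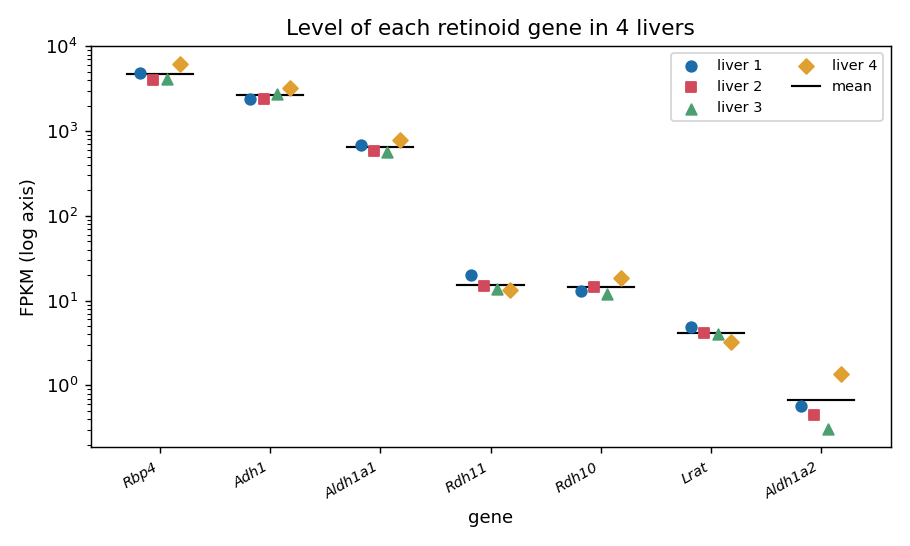
FPKM on a log axis (y) of the 7 genes (x), with 1 symbol per liver and a bar at the mean of 4 livers. Rbp4, Adh1 and Aldh1a1 stand between 559.8 and 6153 FPKM, Rdh11, Rdh10 and Lrat between 3.26 and 19.8 FPKM, and Aldh1a2 between 0.305 and 1.35 FPKM.

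Among the carriers, Rbp4 (XLOC_010900, chromosome 19, 38116620 to 38125321), which encodes the plasma carrier of retinol, was one of the most abundant transcripts of the liver. Its level in livers 1 to 4 was 4781, 4017, 4059.6 and 6153 FPKM, with a mean of 4753 ± 997 FPKM (SD, n = 4). Livers 2 and 3 were low and close to each other, and liver 4 exceeded the next highest liver 1.29-fold. Rbp4 ranked 11, 15, 13 and 8 among all rows in livers 1 to 4. Ttr, the partner of RBP4 in plasma, was 6025, 4627, 4452 and 6472 FPKM. The ratio of Rbp4 to Ttr lay between 0.794 and 0.951, so that it varied 1.198-fold over the livers while Rbp4 itself varied 1.53-fold. Adipocytes also make RBP4, and of 5 adipocyte markers Plin1, Lep and Retn were listed at 0 in all 4 livers, with Adipoq at 0.0480 FPKM in liver 1, 0.0528 FPKM in liver 3 and 0 in the others. The fifth, Cfd, was 2.81, 0.961, 0.556 and 4.49 FPKM in livers 1 to 4, highest in liver 4 as Rbp4 was, but its deposited span covers many genes. The part of adipocyte RNA in the level of Rbp4 was not tested.

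Receptors and other carriers of retinol differed widely in level. Stra6l, which encodes the hepatic RBP4 receptor RBPR2, had 28.4 ± 2.29 FPKM, whereas Stra6, the RBP4 receptor of other tissues, was at most 0.0313 FPKM in any liver. Scarb1 and Lrp1, which take up carotenoids and remnant particles, had 143.5 ± 20.04 and 46.1 ± 3.31 FPKM (each SD, n = 4). Rbp2, Rbp7, Crabp1 and Crabp2 were listed at 0 in all 4 livers.

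Storage was represented by Lrat (XLOC_013807), whose enzyme forms retinyl esters and which in liver is a stellate cell gene. Its level in livers 1 to 4 was 4.91, 4.18, 4.05 and 3.26 FPKM, with a mean of 4.10 ± 0.673 FPKM (SD, n = 4), or about 508, 416, 408 and 317 fragments. Liver 1 was highest and liver 4 lowest, a 1.503-fold range. The deposited span of Lrat (chromosome 3, 82876705 to 82943638) also covers Rbm46os, an antisense gene listed at 0 in all 4 livers, and Gm30097, a noncoding gene on the same strand as Lrat. GENCODE places Lrat itself at 82892579 to 82903973 on the minus strand, and its exons overlap those of no other gene there. Dgat1, which can also esterify retinol, had 16.3 ± 1.63 FPKM (SD, n = 4).

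Stellate cell markers were set beside Lrat because in whole liver fewer cells of a type and less RNA per cell cannot be told apart. All 18 markers were expressed. Their summed level was 326, 406, 300.1 and 333 FPKM in livers 1 to 4, of which Dcn alone made up 139.8, 193.9, 117.5 and 141.3 FPKM, and 10 of 18 were highest in liver 2, where 22.0% of all expressed genes were highest. Lrat was highest in liver 1, together with 3 of the 18, where 17.9% of all expressed genes were highest, and lowest in liver 4, together with 8 of the 18, where 18.1% of all expressed genes were lowest. Reln, which marks quiescent stellate cells, was 4.87, 4.82, 3.72 and 5.10 FPKM and so, unlike Lrat, highest in liver 4, 1 of 3 among the 18 markers that were. Lhx2, a transcription factor of quiescent stellate cells, was 2.46, 3.004, 1.64 and 1.31 FPKM. Of 7 expressed myofibroblast markers 6 were highest in liver 2, among them Col1a1 at 46.9 FPKM. Among expressed markers of other cells, those highest in liver 2 were 5 of 6 for endothelial cells, 2 of 4 for macrophages, 2 of 4 for portal fibroblasts, 1 of 4 for cholangiocytes and 0 of 7 for hepatocytes. The part of cell number in the level of Lrat was not tested.

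**Figure D2:**
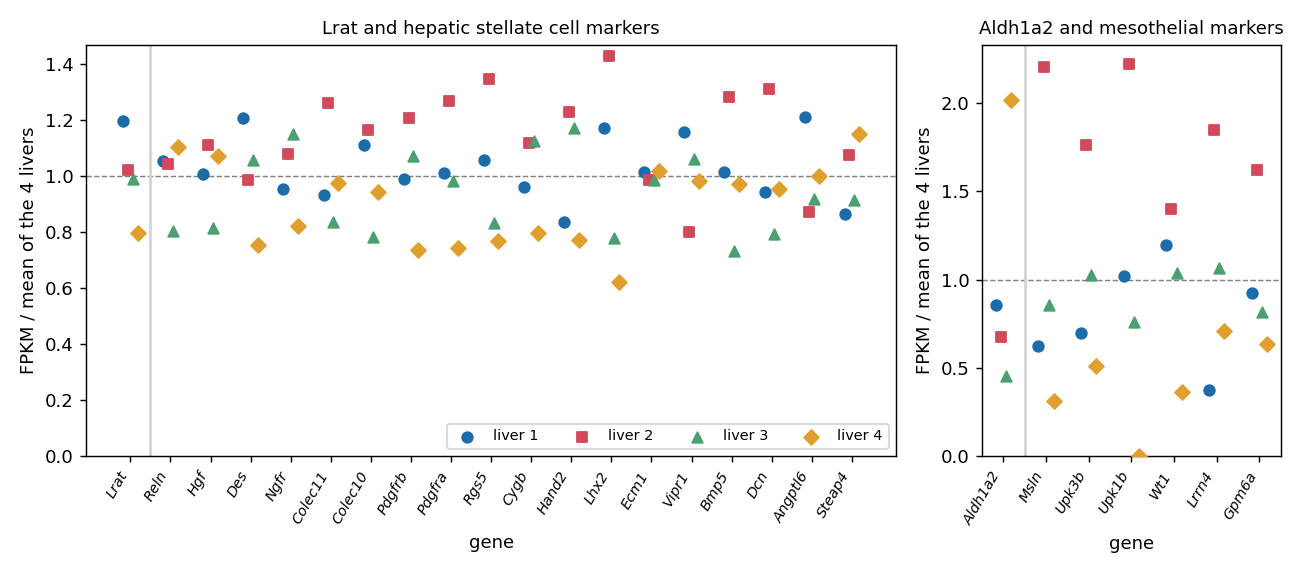
FPKM divided by the mean of the 4 livers (y, from 0), with 1 symbol per liver, for Lrat beside 18 stellate cell markers (left) and Aldh1a2 beside 6 mesothelial markers (right). Liver 2 is the highest in 10 of 18 stellate markers but not in Lrat, and liver 4 is the highest in Aldh1a2 while it is the lowest in 5 of 6 mesothelial markers.

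Release of stored retinol involves several ester hydrolases, which were all expressed. Ces1d had 458 ± 72.6 FPKM, Ces1g 125 ± 16.8 FPKM and Pnpla2 64.8 ± 6.54 FPKM (each SD, n = 4). Pnpla3, which hydrolyses retinyl esters in stellate cells, was 1.66, 1.79, 2.04 and 0.789 FPKM in livers 1 to 4. Liver 4 was its lowest, with a range of 2.59-fold. Of the 7 hydrolases 4 were highest in liver 4, against 33.3% of all expressed genes. Pnpla3 was the 1 of 7 that was lowest there, near the share of 18.1% of all expressed genes.

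Among transcripts for the first oxidation step, the most abundant was Adh1 (XLOC_013572, chromosome 3, 138277645 to 138290691), a cytosolic alcohol dehydrogenase that oxidises ethanol and retinol. Its level in livers 1 to 4 was 2403, 2399, 2717 and 3201 FPKM, with a mean of 2680 ± 378 FPKM (SD, n = 4). Livers 1 and 2 were nearly equal and liver 4 was highest, with a range of 1.33-fold, the narrowest of the 7 genes. Adh1 made up 66.4 ± 2.23% of the summed FPKM of 17 retinol dehydrogenase and reductase genes (SD, n = 4). The next was Rdh7, a microsomal retinol dehydrogenase of hepatocytes, at 16.3 ± 1.19% (SD, n = 4). Exons of the antisense gene Gm16559 overlap those of Adh1, and strand use in counting is not given in the sources used here.

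Rdh10 and Rdh11 encode membrane-bound dehydrogenases that act in opposite directions in cells, RDH10 mainly forming retinaldehyde and RDH11 mainly reducing it. Rdh10 (XLOC_000024, chromosome 1, 16105882 to 16132550) stood at 13.1, 14.6, 11.9 and 18.4 FPKM across livers 1 to 4, with a mean of 14.5 ± 2.84 FPKM (SD, n = 4). It was highest in liver 4 and lowest in liver 3. Rdh11 (XLOC_004904, chromosome 12, 79175551 to 79191819) stood at 19.8, 14.9, 13.6 and 13.3 FPKM, with a mean of 15.4 ± 3.03 FPKM (SD, n = 4). Here liver 1 was high, 1.33-fold above the next, and the other 3 livers lay within 1.13-fold of each other. Together they held under 1% of the summed FPKM of the 17 genes, at 0.359 ± 0.0434% for Rdh10 and 0.390 ± 0.105% for Rdh11 (SD, n = 4). Their coding sequences are 58.2% identical over 840 aligned bases, and 0 of their transcripts' stretches of 50 bases occur in another gene.

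Dhrs3, a retinaldehyde reductase that is induced by retinoic acid and works in a complex with RDH10, was the more abundant partner. It was 99.4, 101.02, 101.3 and 119 FPKM in livers 1 to 4. Its ratio to Rdh10 ran from 6.44 in liver 4 to 8.51 in liver 3. Dhrs4, Adh4 and Adh5 had 112 ± 13.4, 77.0 ± 9.02 and 235 ± 34.4 FPKM (each SD, n = 4), while Rdh1 and Rdh12 stayed at or under 0.197 FPKM in every liver. Of the 11 expressed genes among these 14 other dehydrogenases and reductases, 8 were highest in liver 4, where 33.3% of all expressed genes were highest.

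The irreversible step to retinoic acid was represented by Aldh1a1 and Aldh1a2, whose levels differed between 581-fold, in liver 4, and 1837-fold, in liver 3. Aldh1a1 (XLOC_010441, chromosome 19, 20601982 to 20643462), the retinaldehyde dehydrogenase of hepatocytes, stood at 684, 583, 559.8 and 787 FPKM across livers 1 to 4, with a mean of 653 ± 104 FPKM (SD, n = 4). Livers 1 and 4 were above the mean and livers 2 and 3 below it. It held 61.6 ± 1.88% of the summed FPKM of 7 retinaldehyde-oxidising genes, followed by its neighbour Aldh1a7 with 15.4 ± 1.32%, Aldh8a1 with 12.9 ± 2.05% and Aox3 with 8.35 ± 0.891% (SD, n = 4). The coding sequences of Aldh1a1 and Aldh1a7 are 91.6% identical, and 7.53% of the 50-base stretches of the Aldh1a1 transcript also occur in Aldh1a7, so reads may have been divided between them. Their ratio was between 3.55 and 4.28 in the 4 livers.

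Aldh1a2 (XLOC_022052, chromosome 9, 71215789 to 71296243) encodes the enzyme that makes most retinoic acid in the embryo and is found in mesenchymal and mesothelial cells of adult organs. Its level in livers 1 to 4 was 0.575, 0.453, 0.305 and 1.35 FPKM, with a mean of 0.672 ± 0.468 FPKM (SD, n = 4). Liver 4 was 2.35-fold above the next highest liver, and the whole range was 4.44-fold. These values correspond to about 24, 18, 12 and 53 fragments, so counting error is large for this gene. Averaging under 1 FPKM, it was not counted among expressed genes. Without liver 4 its mean was 0.444 FPKM and its range 1.89-fold.

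Mesothelial markers did not follow Aldh1a2. Msln was 0.418, 1.47, 0.572 and 0.211 FPKM in livers 1 to 4, and the summed level of all 6 markers was 4.14, 8.66, 4.29 and 2.32 FPKM. Liver 4 was the lowest for 5 of the 6, all but Lrrn4, and the only marker listed at 0 in a library was Upk1b, in liver 4. Among expressed genes, 18.1% were lowest in liver 4. Only 1 of the 6 mesothelial markers was expressed, and of 4 expressed portal fibroblast markers 3 were lowest in liver 4. Of the adipocyte markers given above, only Cfd, whose deposited span covers many genes, had the order of livers of Aldh1a2. Adipoq was listed at 0 in liver 4, and Plin1, Lep and Retn were listed at 0 in all 4 livers. Of 5 exocrine pancreas markers 4 were listed at 0 in all 4 livers. The cell source of the Aldh1a2 transcript was not tested.

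Relative to their own means, 5 of the 7 genes were highest in liver 4: Rbp4, Rdh10, Adh1, Aldh1a1 and Aldh1a2. Lrat and Rdh11 were highest in liver 1 and lowest in liver 4. Among the 6 expressed members, 4 were highest in liver 4, against 33.3% of all expressed genes, and 2 in liver 1, against 17.9%. The lowest value fell in liver 1 for 0 of the 6, against 20.7% of all expressed genes, in liver 2 for Rbp4 and Adh1 (2 of 6, against 29.9%), in liver 3 for Rdh10 and Aldh1a1 (2 of 6, against 31.4%) and in liver 4 for Lrat and Rdh11 (2 of 6, against 18.1%). The 5 genes highest in liver 4 were also highest there after the values were rescaled to the same sum, when 15.5% of expressed genes were highest in liver 4, and after scaling by median ratios, when 23.3% were. Both rescalings were added after seeing the data for this and the other counts by highest liver. The median deviation of the 6 members from their means was 0.05, -0.09, -0.18 and 0.27 on the log2(FPKM + 1) scale in livers 1 to 4, against -0.01, -0.02, -0.01 and 0.04 over all expressed genes. When each other liver was left out in turn, it ran from -0.01 to 0.15 in liver 1, so that its sign was not stable, and from -0.20 to -0.10 in liver 3. Hepatocyte markers had a summed level of 31237, 28131, 27429 and 35505 FPKM, which was mostly Apoa1, Fabp1 and Ttr. Of 7 expressed hepatocyte markers 4 were highest in liver 4, while Hnf4a and Cps1 were highest in liver 3 and Tat was lowest in liver 4. The part of a general difference between livers in these values was not tested.

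**Figure D3:**
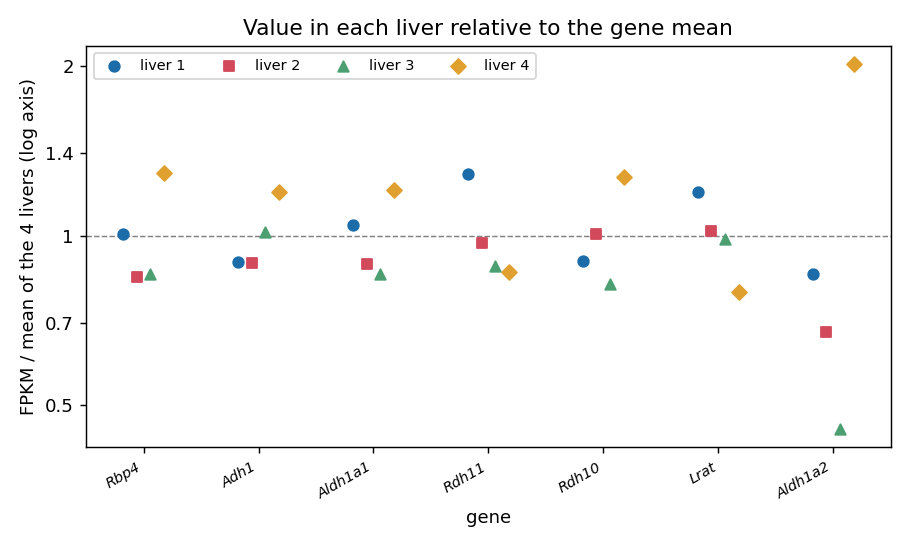
FPKM divided by the mean of the 4 livers on a log axis (y) for each of the 7 genes (x), with 1 symbol per liver and a dashed line at the mean. Liver 4 is the highest for Rbp4, Adh1, Aldh1a1, Rdh10 and Aldh1a2 and the lowest for Rdh11 and Lrat.

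The spread between livers, on the values as deposited, was above the median of all expressed genes for each of the 6 expressed members, but not for Adh1 after rescaling to the same sum (0.15 against 0.16) or for Lrat without liver 1 (0.15 against 0.17). The SD of log2(FPKM + 1) was 0.19 for Lrat, 0.20 for Adh1, 0.22 for Aldh1a1, 0.25 for Rdh11 and for Rdh10, and 0.29 for Rbp4. Their median was 0.24, against 0.16 over all expressed genes, and Rbp4 exceeded 88.5% of those genes. Without liver 1 the SD of Rdh11 was 0.08, against 0.17 over all expressed genes. A range of at least 1.5-fold was found for 3 of the 6 members (Lrat, Rbp4 and Rdh10), against 28.4% of all expressed genes. Lrat, at 1.503-fold, and Rdh11, at 1.49-fold, lay just inside and just outside that limit. After rescaling to the same sum or by median ratios the count was 2: Rdh11 now passed, at 1.62-fold and 1.56-fold, with Lrat, at 1.64-fold and 1.57-fold. Rbp4 (1.401-fold and 1.46-fold) and Rdh10 (1.401-fold and 1.48-fold) then fell short, against 29.1% and 28.2% of all expressed genes that passed. Without liver 4 the SD was 0.14 for Rbp4 and for Rdh10, 0.12 for Lrat and 0.10 for Adh1. The median SD of the members was then 0.14 and 0 of 6 had such a range, against 0.15 and 19.7% of all expressed genes. By Dixon's ratio, which compares the gap of the most extreme liver with the range, 0 of 6 members had an outlying liver at the 95% critical value, against 5.46% of expressed genes.

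**Figure D4:**
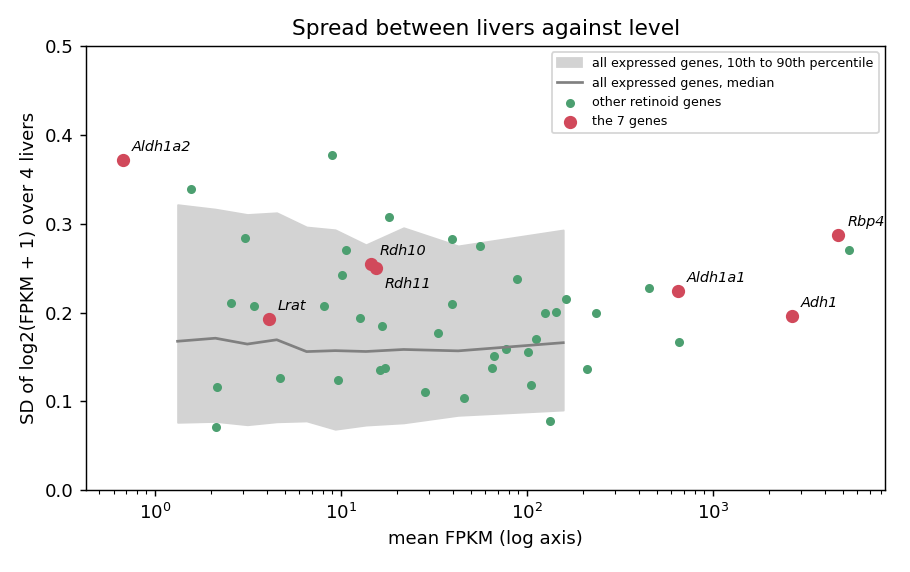
SD of log2(FPKM + 1) over 4 livers (y) against mean FPKM on a log axis (x) for the 7 genes and 39 other expressed retinoid genes, over the median and the 10th to 90th percentile of all expressed genes in 10 classes of level, drawn between the class medians. The 6 expressed members lie between 0.19 and 0.29, above the median of 0.16 over all expressed genes.

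The other genes of the pathway were followed in a list of 50, of which 39 were expressed and 4 were listed at 0 in all 4 livers. Their median SD was 0.19. Of the 39, 20 were highest in liver 4, against 33.3% of all expressed genes. The number was 13 after rescaling to the same sum, against 15.5%, and 18 after scaling by median ratios, against 23.3%. A range of at least 1.5-fold was found for 9 of the 39, against 28.4% of all expressed genes.

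Receptors and the main enzyme that clears retinoic acid were mostly highest in liver 3, where 0 of the 7 members were highest. Cyp26a1, which is induced by retinoic acid and degrades it, was 6.52, 7.49, 12.7 and 9.36 FPKM in livers 1 to 4. It was highest in liver 3, where Aldh1a1 was lowest, and next highest in liver 4, where Aldh1a1 was highest. The SD of Cyp26a1, at 0.38, exceeded that of 95.7% of expressed genes. Rara was 8.74, 9.29, 13.8 and 10.8 FPKM, and Rxra, the main RXR of hepatocytes, was 91.3, 92.1, 112 and 109 FPKM. Of the 6 receptor genes 5 were highest in liver 3, where 26.8% of all expressed genes were highest. The count was 5 after rescaling to the same sum, against 34.2%, and 5 after scaling by median ratios, against 30.2%. On the values as deposited, 5 of 9 periportal and 4 of 10 pericentral hepatocyte markers were also highest in liver 3. Rarb, itself a target of retinoic acid, differed little, at 2.13 ± 0.154 FPKM (SD, n = 4). Rxrg was highest in liver 4, at 3.32 FPKM. Cyp26b1 was between 0.478 and 0.965 FPKM and Cyp26c1 was listed at 0 in livers 2 and 4.

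**Figure D5:**
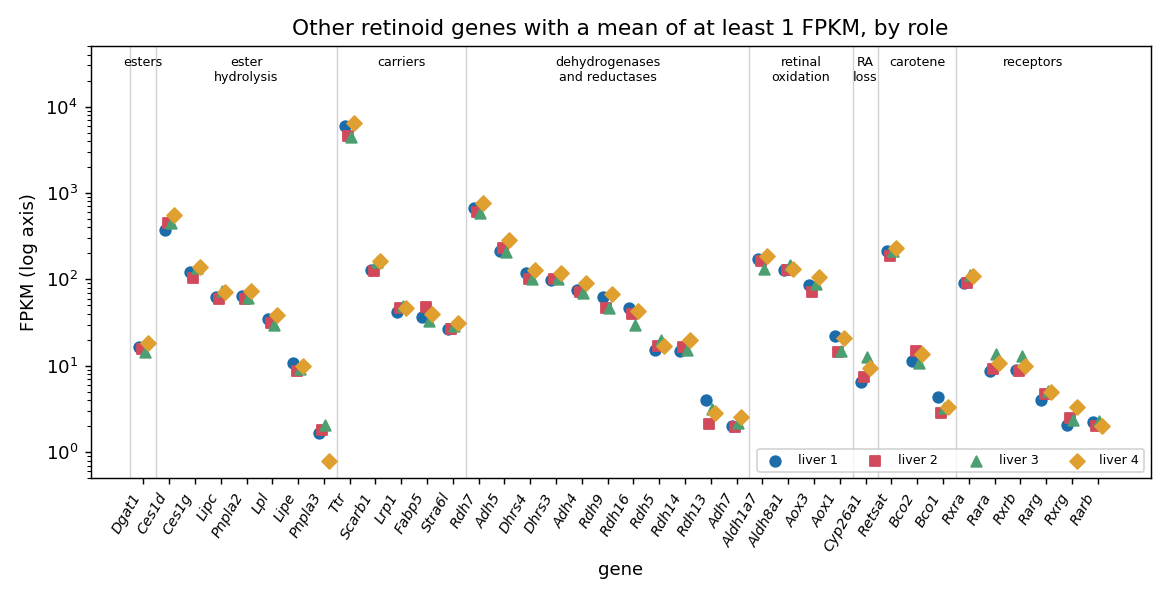
FPKM on a log axis (y) of the other expressed retinoid genes (x), all but 1 of 39, grouped by role, with 1 symbol per liver. Ttr is highest at 4452 to 6472 FPKM, and liver 3 is the highest for Cyp26a1 (RA loss, clearance of retinoic acid) and for 5 of 6 receptors.

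The genes whose deviations over the 4 livers were most like those of each member, among 6537 genes (6538 for Lrat) that averaged 5 FPKM or more, were found by the root mean square difference on the log2 scale. They were Eci2 (0.02) and Zfp639 (0.02) for Rbp4, Mat1a (0.01) and Ift27 (0.02) for Adh1, and Hao1 (0.02) and Atp6v0c (0.02) for Aldh1a1. Chuk (0.02) was the second nearest for Rdh10. The nearest were, for Rdh11, Slc20a1 (0.01) and Hscb (0.03), and for Lrat Cyp2d37-ps (0.02) and Tomm34 (0.03). With 4 livers and so many genes, close matches are easily found, and nothing about function is read from them.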

How the data were processed

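Poly(A)-enriched RNA libraries of 4 livers were analysed as 1 group. The submitters' processing notes name FastQC 0.10.1, Trim Galore 0.6.3, cutadapt, STAR 2.7.6a, Cufflinks 2.2.1 and the build mm10; annotation and options are not given in the sources used here. The authors deposited 1 table, whose values were taken to be FPKM from their size and from the form of the identifiers; no header names the unit. Columns were matched through the sample descriptions, with 0 unmatched, and 1 was added to span starts, which appeared to count from 0. Depth was estimated, as an approximation, from values worth about 1 fragment in genes with a single GENCODE vM21 transcript over 800 bases, taken less 200 bases. Each numbered liver was taken as a separate mouse; with 1 library each, differences between mice and between library preparations cannot be told apart. Values were used as FPKM and as log2(FPKM + 1), with Python 3.11.15, numpy 2.4.6 and pandas 2.3.3; the procedures were tested on simulated data. Named genes are the members, a list of 50 other retinoid genes, marker and acute phase lists, and for each expressed member the 2 genes nearest in deviations; the values of 2 of these genes are not reported here. Alternatives were pseudocounts of 0.1 and 5, no minimum or a minimum of 5 FPKM, 2 rescalings and leaving out each liver. The members and lists were chosen with earlier results of these data known.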

Additional observations from a re-analysis of the deposited data

Results flagged for a closer look

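Among the members, the other retinoid genes, the stellate and mesothelial markers and the acute phase genes, 2 that were expressed had 1 liver far from the other 3 by Dixon's ratio at its 95% critical value. Dhrs3 reached 119 FPKM in liver 4, while the other livers lay from 99.4 to 101.3 FPKM, which gives a ratio of 0.892. Orm1, an acute phase gene, reached 1631 FPKM in liver 2, while the other livers lay from 758 to 812 FPKM, which gives a ratio of 0.911. About 1 gene in 20 passes this value by chance, and 5.46% of all expressed genes passed it. The expressed genes searched were 6 members, 39 other retinoid genes, 18 stellate markers, 1 mesothelial marker and 8 acute phase genes. The 2 genes are thus no more than chance would give.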

How the results depend on the processing

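Of 218 values recomputed under the alternatives, 204 moved by less than the spread between livers (for medians over a list, the spread between its genes) or, for counts and ratios, by no more than 1.5 times. When each liver was left out in turn, the median SD of the members ran from 0.14 (without liver 4) to 0.27 (without liver 2), and the number of members with a range of at least 1.5-fold from 0 (without liver 4) to 3. The number of retinoid genes other than members that were highest in liver 4 was 20 (33.3% of all expressed genes were), and 13 after rescaling to the same sum (15.5%); both rescalings of counts by highest liver were chosen after seeing the data. The median deviation of the members in liver 4 lay between 0.18 and 0.28 under all alternatives that kept it; with 1 liver left out it ran from -0.01 to 0.15 in liver 1 and from -0.20 to -0.10 in liver 3. Dixon's ratio was not computed on 3 livers. No paired analysis was possible because there is only 1 group, so no samples can be paired between groups; the test between neighbouring genes compares them within each liver. Depth limits Aldh1a2 most, at about 12 to 53 fragments, and the absence of a second group limits every value to a description.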

Other observations

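Other reductases and carotene enzymes showed differences that the main account leaves out. Rdh13, a mitochondrial retinaldehyde reductase, stood at 4.07, 2.15, 3.13 and 2.85 FPKM over the 4 livers, the highest 1.896-fold the lowest. Bco1, which cleaves beta-carotene to retinaldehyde, was highest in liver 1 at 4.39 FPKM and between 2.84 and 3.31 FPKM in the others. Aox1 was 22.3, 14.6, 14.9 and 21.1 FPKM, so that livers 1 and 4 were high and livers 2 and 3 low, the same division as for Aldh1a1. Rdh16 and Rdh9, microsomal retinol dehydrogenases, had 39.8 ± 7.38 and 55.8 ± 10.8 FPKM (SD, n = 4). Retsat, which saturates retinol, had 211 ± 19.6 FPKM (SD, n = 4).

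The ratio of Rbp4 to Lrat, the secreted carrier against the storage enzyme, was 974, 960.3, 1002 and 1885 in livers 1 to 4. Livers 1 to 3 thus lay close together and liver 4 stood above them, since Rbp4 was highest and Lrat lowest there. This ratio was chosen after its values were seen.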
